A study of Mus musculus with 48 samples.

Results

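Genes known best from fat cells, 7 in number, were followed in 48 livers of mice with altered liver X receptor-α (LXRα, encoded by Nr1h3): Pparg, Cidea, Cidec, Plin4, Mogat1, Cfd and Fabp4. These 7 genes, of 55416 in the count tables, were found by their Ensembl identifiers. They were chosen by their level across the 6 genotype groups described here, so their differences between groups are given as a description and carry no p-value. All 7 passed the filter on low counts, which kept 15711 genes. Levels are in CPM, the reads of a gene over those of the library on a common scale, with libraries scaled by the trimmed mean of M-values (TMM).

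Knock-in mice carried the dominant negative W441R allele on 0 (DN:WT), 1 (DN:HET) or both (DN:HOM) copies of the gene, and knockout mice lacked 0 (KO:WT), 1 (KO:HET) or both (KO:HOM) copies. Each of the 6 groups had 8 livers, and the strain label is C57Bl/6J throughout. All mice, wild-type included, ate a western diet with 0.2% cholesterol for 8 weeks, from 8 to 16 weeks of age, so no liver shows these genes on a control diet. Per the study's methods, the knock-in mice were male littermates bred from a founder made with CRISPR. The knockout line was kept at a separate site, came from a mixed Sv129/C57Bl/6 stock and had been backcrossed for more than 10 generations. The knockout experiment followed the plan of the knock-in one. A difference between the studies therefore cannot be told apart from a difference of site or line.

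Of the livers, 2 went against their labels. The library labelled DN:WT animal 10 and the library labelled DN:HOM animal 12 are absent from the livers behind the study's own source values, and no reason is given. The summed level of 6 macrophage markers was 1229 CPM in DN:WT animal 10, against 72.2 to 140.5 CPM in the other 7 DN:WT livers, and it was 80.4 CPM in DN:HOM animal 12, against 747 to 1230 CPM in the other 7 DN:HOM livers. Values below are from the 46 remaining livers (7 DN:WT, 7 DN:HOM and 8 in each other group). Those with all 48 livers are given beside many of them. A DN:HOM value printed alone may be smaller with all 48. No liver was moved to another group. In a whole liver, fewer cells of a type and less RNA per cell cannot be told apart. Reads on genes per liver ran from 5332897 to 16961379, and 3 reads, the floor used here, were worth 0.135 to 0.604 CPM. Nr1h3 itself was at 93.5 ± 8.82 CPM (SD, n = 8) in KO:WT, 59.2 ± 5.63 CPM (SD, n = 8) in KO:HET and 26.98 ± 1.99 CPM (SD, n = 8) in KO:HOM livers. DN:WT livers had 91.7 ± 5.04 CPM (SD, n = 7) and those of DN:HOM 72.8 ± 3.56 CPM (SD, n = 7). DN:WT livers ran from 81.97 to 96.8 CPM and those of DN:HOM from 68.4 to 77.3 CPM, with DN:WT animal 10 at 71.2 CPM and DN:HOM animal 12 at 86.8 CPM.

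The genes lie on 6 chromosomes of GRCm39. Pparg spans chromosome 6 from 115337675 to 115468268 and Cidec chromosome 6 from 113400691 to 113412721. Cfd spans chromosome 10 from 79726668 to 79728496, Cidea chromosome 18 from 67476317 to 67501224, Plin4 chromosome 17 from 56406617 to 56416931, Fabp4 chromosome 3 from 10268785 to 10273737 and Mogat1 chromosome 1 from 78487628 to 78514810. Plin4, Cidea and Mogat1 overlap exons of a gene on the opposite strand (Hdgfl2, B430212C06Rik and BC035947), and the counts used here are of 1 strand. Whether reads on the wrong strand passed between these pairs was not tested. Pparg has several start sites, and a count per gene does not separate its isoforms.

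PPARγ, the product of Pparg, is a nuclear receptor that pairs with a retinoid X receptor and switches on fat storage in adipocytes. A healthy liver makes little of it, and a liver that fills with fat makes more, together with genes otherwise typical of adipocytes. Several of these encode proteins of the lipid droplet: Cidea and Cidec join small droplets into larger ones, and Plin4 coats nascent droplets. Mogat1 is a monoacylglycerol acyltransferase that feeds triacylglycerol synthesis. Cfd encodes adipsin (complement factor D), a secreted protease that starts the alternative complement pathway, and Fabp4 carries fatty acids in adipocytes and macrophages. LXRα is a sterol-activated receptor that drives lipogenic genes in hepatocytes.

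To show what the genes have at their starts, the 250 bases before the start of each gene's canonical transcript were searched on both strands for AGGNCANAGGNCA, the spaced repeat typical of PPAR sites, which 0.351% of 21627 protein-coding promoters held. None of the 7 held it. The repeat AGGNCANNNNAGGNCA, typical of LXR sites, was in 0.176% of promoters and in none of the 7. The single core AGGTCA, which both repeats can contain, was in 13.1% of promoters and in those of Mogat1 and Fabp4. No match says only that these letters are not in this window. TTGCNNAA (9.37% of promoters), TATAAA (11.9%) and CACGTG (6.29%) were in none of the 7. The stretches below are from the reference genome, 5′ to 3′ on the gene's strand, with the match of the core in capitals. They show the only matches, in Mogat1 (60 bases, -67 to -8 from the start; chr1:78488376-78488435, plus strand) and Fabp4 (-250 to -191; chr3:10273928-10273987, minus strand), and Cfd, the gene with the widest spread between groups (-60 to -1; chr10:79726608-79726667, plus strand), which had no match.
Mogat1: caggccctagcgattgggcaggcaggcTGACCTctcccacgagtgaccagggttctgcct
Fabp4: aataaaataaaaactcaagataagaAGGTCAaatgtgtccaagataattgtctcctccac
Cfd: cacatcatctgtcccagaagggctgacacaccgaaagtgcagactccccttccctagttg

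Pparg, the regulator, was nearly level across the knock-in study. It ran from 20.3 to 33.2 CPM (median 26) in DN:WT, from 18.5 to 40.6 CPM (median 24.3) in DN:HET and from 22.8 to 28.6 CPM (median 26.7) in DN:HOM livers. The 3 ranges overlapped. DN:WT livers averaged 26.3 ± 5.09 CPM (SD, n = 7), those of DN:HET 26 ± 6.52 CPM (SD, n = 8) and those of DN:HOM 25.9 ± 2.34 CPM (SD, n = 7), a log2 fold change in DN:HOM of -0.01 (SE 0.20). With library size in place of TMM it was 0.42 (SE 0.20), on a scale where the median of all genes was also at 0.42, against -0.01 with TMM. That shift bears on every DN:HOM value here, since TMM factors were 1.21 to 1.34 in DN:HOM and 0.922 to 0.975 in DN:WT livers. The library labelled DN:HOM animal 12 had 38.8 CPM of Pparg, above every other DN:HOM liver.

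In the knockout study the heterozygous livers had the narrowest spread. Pparg ran from 10.5 to 35.3 CPM (median 17.2) in KO:WT, from 13.1 to 21 CPM (median 16.98) in KO:HET and from 12.8 to 41.2 CPM (median 28.2) in KO:HOM livers. All 3 ranges overlapped. KO:WT animals 23 and 34 had 34.03 and 35.3 CPM, and the other 6 had at most 19.5 CPM. The log2 fold change of KO:HOM against KO:WT was 0.40 (SE 0.19), with a mean of 26.1 ± 8.49 CPM (SD, n = 8) against 19.8 ± 9.71 CPM (SD, n = 8). From highest to lowest mean, Pparg was ordered DN:WT, KO:HOM, DN:HET, DN:HOM, KO:WT and KO:HET, and no neighbours differed by more than their pooled SD.

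**Figure D1:**
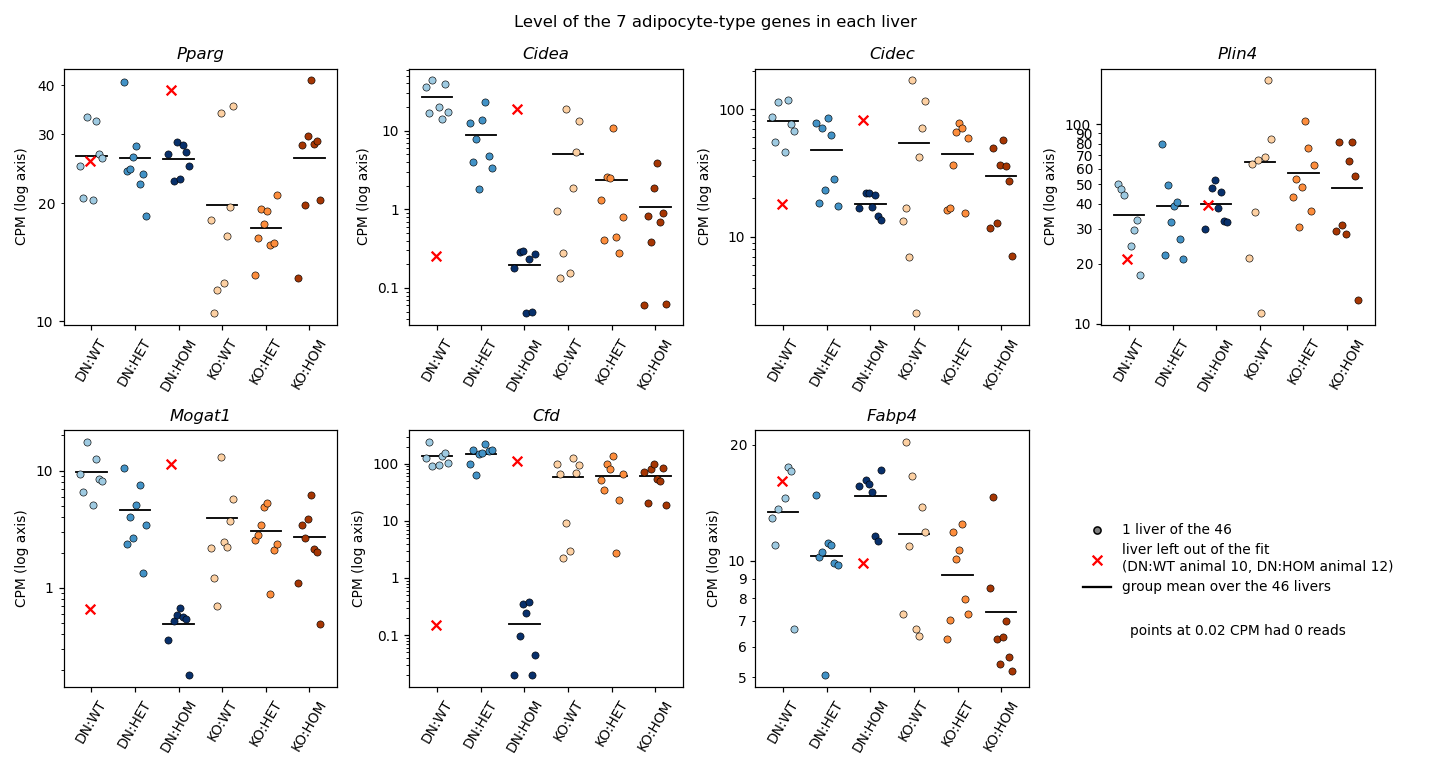
Level of each gene in each liver, in CPM on a log axis, by group. Points are livers, black bars are means over the 46 livers, and red crosses are the livers labelled DN:WT animal 10 and DN:HOM animal 12, which had 0.152 and 110.1 CPM of Cfd. The 7 other DN:HOM livers lie below every other DN:WT liver for Cidea, Cidec, Mogat1 and Cfd, and overlap them for Pparg, Plin4 and Fabp4.

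Cidea, which fuses lipid droplets, was at or near the floor in DN:HOM livers. It ran from 14 to 44.03 CPM (median 19.8) in DN:WT, from 1.84 to 23.3 CPM (median 6.30) in DN:HET and from 0.0480 to 0.295 CPM (median 0.235) in DN:HOM livers. DN:HOM did not overlap either group, and DN:HET overlapped DN:WT. The 7 DN:HOM livers held 29 reads of Cidea together. The log2 fold change was -7.03 (SE 0.95) in DN:HOM and -1.60 (SE 0.63) in DN:HET. With all 48 livers, where DN:WT animal 10 had 0.253 CPM and DN:HOM animal 12 had 18.8 CPM, the DN:HOM value was -3.32 (SE 0.94).

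Each knockout group had a lower mean of Cidea than DN:WT, and a wide spread. It ran from 0.134 to 18.7 CPM (median 1.41) in KO:WT, from 0.280 to 10.7 CPM (median 1.06) in KO:HET and from 0.0612 to 3.90 CPM (median 0.763) in KO:HOM livers. The 3 groups overlapped throughout. The KO:WT mean of 5.10 ± 7.10 CPM (SD, n = 8) rested on animals 23, 34 and 33, at 18.7, 13.2 and 5.37 CPM, while the other 5 had at most 1.87 CPM. The log2 fold change of KO:HOM was -2.19 (SE 0.74), and -2.18 (SE 0.99) with all 48 livers. Between the wild-type groups it was -2.38 (SE 0.65) in KO:WT against DN:WT. In the order of means (DN:WT, DN:HET, KO:WT, KO:HET, KO:HOM, DN:HOM), the step from DN:WT to DN:HET was the only one larger than the pooled SD.

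Cidec, the related droplet-fusion protein of white fat, was lower in DN:HOM livers but still well detected. It ran from 46.5 to 117.6 CPM (median 76.0) in DN:WT, from 17.5 to 85.8 CPM (median 45.7) in DN:HET and from 13.6 to 21.9 CPM (median 16.98) in DN:HOM livers. DN:HOM lay wholly below DN:WT and shared the lower end of DN:HET. The log2 fold change was -2.13 (SE 0.55) in DN:HOM and -0.74 (SE 0.51) in DN:HET, and with all 48 livers the DN:HOM value was -1.47 (SE 0.55). DN:HET animals 4, 14, 22 and 29 had 17.5 to 28.6 CPM and animals 1, 8, 16 and 20 had 62.8 to 85.8 CPM, with no liver between.

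In knockout livers Cidec ran from 2.53 to 168 CPM (median 29.6) in KO:WT, from 15.4 to 77.7 CPM (median 47.8) in KO:HET and from 7.03 to 57.0 CPM (median 31.6) in KO:HOM. Wild-type livers thus held both the lowest and the highest values of the study. The KO:HOM log2 fold change was -0.87 (SE 0.50). No neighbours in the order of the 6 means (DN:WT, KO:WT, DN:HET, KO:HET, KO:HOM, DN:HOM) differed by more than their pooled SD.

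Plin4, the droplet coat, did not fall with the CIDE genes in DN:HOM livers. It ran from 17.6 to 50.2 CPM (median 33.03) in DN:WT, from 21.2 to 79.97 CPM (median 35.7) in DN:HET and from 29.8 to 52.4 CPM (median 38.0) in DN:HOM livers. The groups overlapped, with a log2 fold change of 0.19 (SE 0.38) in DN:HOM by TMM and 0.62 (SE 0.37) by library size. Means and medians were higher in the knockout study, but the lowest KO:WT and KO:HOM livers lay below every knock-in liver. Plin4 ran there from 11.3 to 166 CPM (median 64.9) in KO:WT, 30.8 to 103.9 CPM (median 50.9) in KO:HET and 13.1 to 81.6 CPM (median 43.1) in KO:HOM. The KO:HOM log2 fold change was -0.43 (SE 0.35), and KO:WT against DN:WT was 0.89 (SE 0.37). Its order of means was KO:WT, KO:HET, KO:HOM, DN:HOM, DN:HET and DN:WT, and no step exceeded the pooled SD.

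Mogat1, the acyltransferase, was lowest in DN:HOM livers. It ran from 5.10 to 17.5 CPM (median 8.42) in DN:WT, from 1.35 to 10.5 CPM (median 3.72) in DN:HET and from 0.181 to 0.671 CPM (median 0.542) in DN:HOM livers. DN:HOM overlapped neither group, and DN:HET reached into DN:WT. The log2 fold change was -4.28 (SE 0.53) in DN:HOM and -1.08 (SE 0.42) in DN:HET. With all 48 livers the DN:HOM value was -2.29 (SE 0.63), since DN:WT animal 10 had 0.657 CPM and DN:HOM animal 12 had 11.3 CPM.

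The knockout groups held Mogat1 at similar, low levels. It ran from 0.697 to 13.2 CPM (median 2.34) in KO:WT, from 0.887 to 5.26 CPM (median 2.70) in KO:HET and from 0.4934 to 6.17 CPM (median 2.41) in KO:HOM livers. KO:WT animal 23 again had the highest value. The KO:HOM log2 fold change was -0.54 (SE 0.43), and KO:WT against DN:WT was -1.29 (SE 0.43). Of the 5 steps in the order of its means (DN:WT, DN:HET, KO:WT, KO:HET, KO:HOM, DN:HOM), the first and the last exceeded the pooled SD.

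Cfd, which encodes adipsin, had the widest range of the 7. It ran from 91.9 to 240.2 CPM (median 127) in DN:WT, from 64.5 to 223 CPM (median 162) in DN:HET and from 0 to 0.377 CPM (median 0.0947) in DN:HOM livers. In DN:HOM 2 livers had 0 reads, which allows up to 3 reads, and the 7 together held 23 reads against 13585 in the 7 DN:WT livers. The log2 fold change was -9.68 (SE 0.93) in DN:HOM, a fitted value that rests on those 23 reads. It was 0.17 (SE 0.52) in DN:HET, with DN:HET animal 8 below the DN:WT range and the other 7 within it. DN:WT animal 10 had 0.152 CPM (3 reads) and DN:HOM animal 12 had 110.1 CPM, and with all 48 livers the DN:HOM value was -3.14 (SE 0.98).

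Knockout homozygous livers kept Cfd. It ran from 2.23 to 124.8 CPM (median 66.9) in KO:WT, from 2.79 to 138 CPM (median 59.1) in KO:HET and from 19.1 to 100.4 CPM (median 63.6) in KO:HOM livers. KO:WT animals 14, 31 and 23 had 2.23, 2.99 and 9.31 CPM, and the other 5 had at least 65.3 CPM. The KO:HOM log2 fold change was 0.03 (SE 0.50), with an interval of ±2 SE from -0.98 to 1.04. The difference of the homozygous effects, knock-in minus knockout, was -9.71 (SE 1.06) for the 46 livers and -3.18 (SE 1.31) for all 48. In the order DN:HET, DN:WT, KO:HET, KO:HOM, KO:WT and DN:HOM, the steps from DN:WT to KO:HET and from KO:WT to DN:HOM exceeded the pooled SD, and the ranges of the last pair did not overlap.

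Fabp4, the fatty acid carrier shared by adipocytes and macrophages, had group means from 7.38 to 14.7 CPM. It ran from 6.67 to 17.5 CPM (median 13.6) in DN:WT, from 5.07 to 14.8 CPM (median 10.4) in DN:HET and from 11.2 to 17.1 CPM (median 15.7) in DN:HOM livers. The groups overlapped, with a log2 fold change in DN:HOM of 0.15 (SE 0.23) by TMM and 0.58 (SE 0.23) by library size. In the knockout study it ran from 6.39 to 20.3 CPM (median 11.4) in KO:WT, from 6.26 to 12.4 CPM (median 9.04) in KO:HET and from 5.18 to 14.7 CPM (median 6.31) in KO:HOM. The KO:HOM log2 fold change was -0.67 (SE 0.22). Its means fell in the order DN:HOM, DN:WT, KO:WT, DN:HET, KO:HET and KO:HOM, with no step above the pooled SD.

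Reads of white adipocyte genes stood out in 3 knockout-study livers. KO:WT animal 5, the liver with the most Fabp4, also had the most Adipoq (adiponectin, 39 reads, 2.62 CPM), followed by KO:HET animal 4 (21 reads) and KO:WT animal 14 (7 reads), while KO:HOM livers had 0 reads. Without these 3 livers, an alternative chosen after seeing the data, the KO:HOM log2 fold change of Fabp4 was -0.49 (SE 0.23), no longer called, that of Pparg 0.21 (SE 0.19), that of Mogat1 -0.85 (SE 0.43) and that of Cidea -2.58 (SE 0.72). The difference of homozygous effects for Fabp4 (0.63, SE 0.32) and KO:WT against DN:WT for Mogat1 (-0.98, SE 0.43) were no longer called either. Of all 15869 genes in that fit, 2708 were called in KO:HOM, 5062 for the difference and 1387 between the wild-type groups. These calls are given for scale only, since the 7 genes were selected on these groups. The part of adipose tissue in these values was not tested further.

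Per kilobase of canonical transcript, Cfd stood highest in DN:WT livers with a level of 144 CPM per kilobase, followed by Cidec at 28.1, Cidea at 21.2, Fabp4 at 9.82, Pparg at 9.61, Mogat1 at 7.83 and Plin4 at 4.73. In DN:HOM livers the order of levels per kilobase was Fabp4 at 10.8, Pparg at 9.44, Cidec at 6.35, Plin4 at 5.35, Mogat1 at 0.396, Cfd at 0.167 and Cidea at 0.154. Cfd thus left the top of this order, and in DN:HOM livers Cfd and Cidea, with 23 and 29 reads in all, were both at or near the floor and their order is not resolved.

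Set against all genes tested, 4 of the 7 were called lower in DN:HOM (Cfd, Cidea, Cidec and Mogat1) and 0 higher, where 30% of all genes were called lower and 29.1% higher (edgeR's quasi-likelihood test, adjusted p under 0.05). The same 4 did not overlap between DN:HOM and DN:WT livers, as did 15.8% of all genes on the lower side. The same 4 were called with all 48 livers, beside 25% of genes lower and 23% higher. Under library size alone Fabp4 was called higher too, beside 59% of genes higher and 11.1% lower. In KO:HOM, Cidea and Fabp4 were called lower, beside 7.87% of genes lower and 11.5% higher. Only Fabp4 of these was called with all 48 livers, beside 4.12% of genes lower. Under library size alone Pparg (0.52, SE 0.19) was called higher and Cidea lower, beside 16.7% and 2.79% of genes. Fits within each study called 0 of the 7 in KO:HOM, beside 2411 of 14296 genes, and 1 in DN:HET, beside 239 of 15151 genes. In the fit of 46 livers 0 of the 7 were called in DN:HET, where 2.30% of genes were called, or in KO:HET, where 0.0191% were. For the difference of homozygous effects, Cfd, Cidea and Mogat1 were called lower and Fabp4 higher, beside 18.3% and 16.5% of genes, and with all 48 livers 0 were. Cidea and Mogat1 were called lower in KO:WT than DN:WT, where 12% of genes were called in either direction, and 0 with all 48 livers. These shares are given for scale, and nothing is read from them, since the genes were selected on these groups. The median log2 fold change of the 7 was -2.13 in DN:HOM and -0.54 in KO:HOM, beside -0.01 and -0.02 over all genes.

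**Figure D2:**
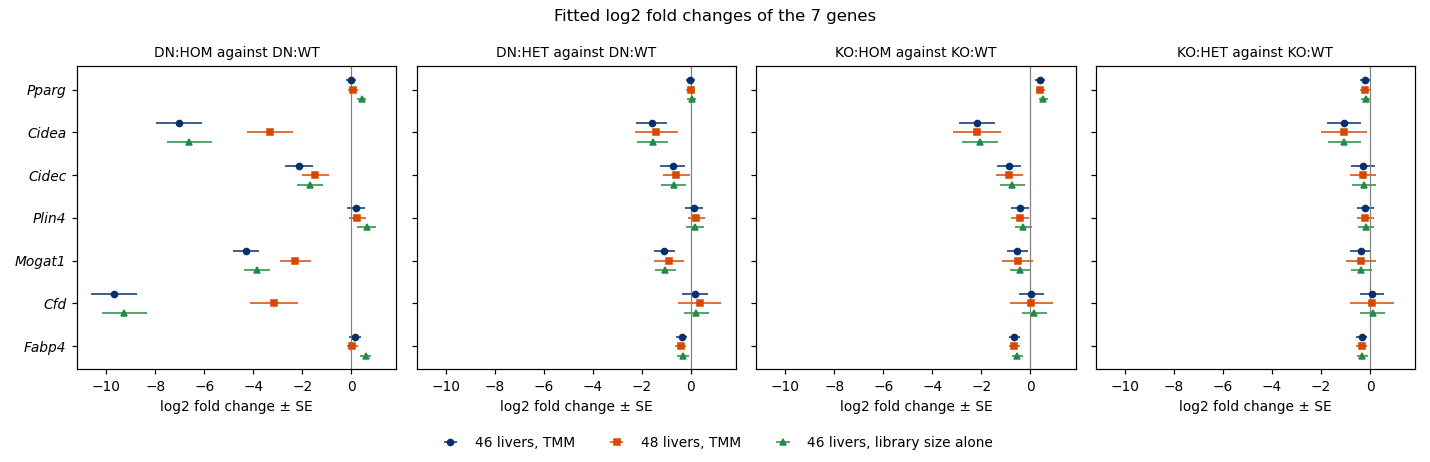
Fitted log2 fold change of each gene with its standard error, in 4 comparisons, from the 46 livers (circles), all 48 livers (squares) and the 46 livers scaled by library size alone (triangles). For Cfd in DN:HOM the values are -9.68, -3.14 and -9.27, and for Pparg they are -0.01, 0.07 and 0.42.

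Within groups, Cidea, Cidec and Mogat1 varied together over the 46 livers, and Plin4 followed Cidec most closely. The relations of Cfd and some of those of Fabp4 depended on the 2 livers left out. These relations are of log2 CPM over livers after subtracting each group's mean, 21 pairs in each study, and are a description with no p-value, since livers of a group share diet, site and processing. In the 22 knock-in livers Pearson's r was 0.71 for Cidea with Cidec (Spearman's rho 0.70), 0.74 for Cidec with Mogat1 (rho 0.81) and 0.69 for Cidec with Plin4 (rho 0.67). Leaving out the 2 livers farthest from the median on the first gene left 0.69, 0.81 and 0.68. Cidea with Mogat1 was looser, at 0.51 (rho 0.44), and at 0.41 without the 2 farthest. Cfd had r between -0.23 and 0.07 with the other 6. Over all 24 knock-in livers r of Cfd was 0.87 with Cidea (rho 0.63), 0.84 with Mogat1 (rho 0.59) and 0.65 with Cidec (rho 0.41), and r was 0.89 for Cidea with Mogat1 against 0.51 over the 22. For Fabp4, r was -0.06 with Cidea, 0.06 with Cidec and -0.14 with Mogat1 over the 24. Over the 22 these were 0.54, 0.41 and 0.29.

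In the 24 knockout livers Pparg was most closely related to Cidea, Cidec and Mogat1. Pearson's r of Pparg was 0.85 with Cidea (rho 0.82), 0.78 with Cidec (rho 0.72) and 0.76 with Mogat1 (rho 0.72), and without the 2 farthest livers 0.83, 0.78 and 0.77. In knock-in livers the same pairs were at 0.29, 0.62 and 0.58, and that of Pparg with Cidea was 0.08 without the 2 farthest. Pparg with Plin4 was at 0.46 in knock-in and 0.45 in knockout livers, and with Fabp4 at 0.23 and 0.10. Without the 2 farthest livers Pparg was at 0.06 and 0.42 with Plin4, and at 0.03 and 0.16 with Fabp4. Whether the studies differ in these relations was not tested. Cidea with Mogat1 was at 0.85 (rho 0.87) and Cidea with Cidec at 0.84 (rho 0.83) in knockout livers. Plin4 was at 0.79 with Cidec, 0.39 with Mogat1 and 0.51 with Fabp4 there. Cfd lay between -0.10 and 0.42 with the others, and Fabp4 between -0.10 and 0.51.

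**Figure D3:**
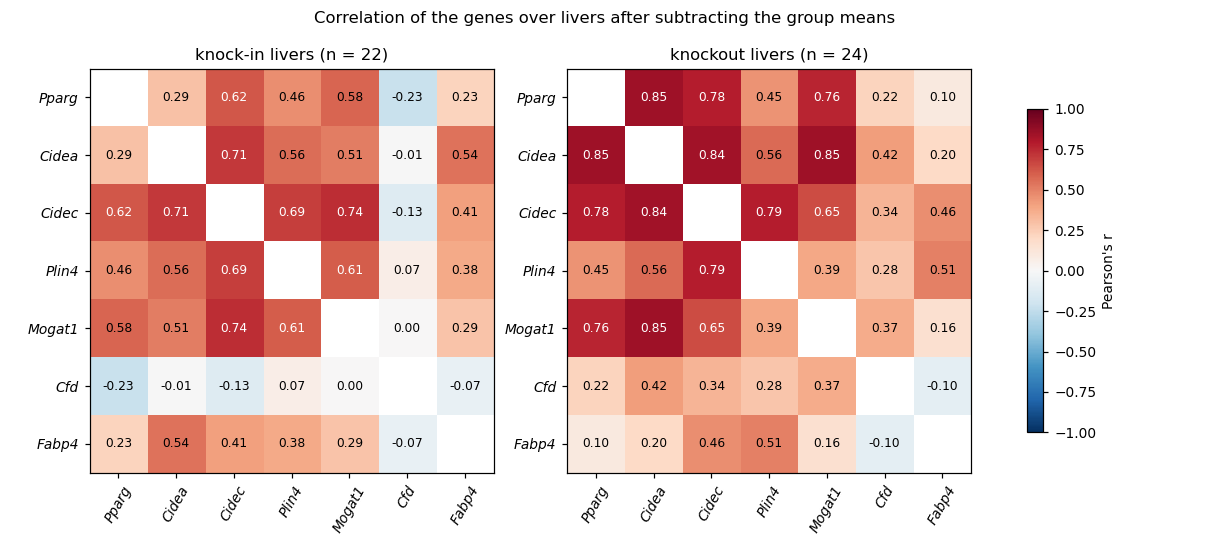
Pearson's r between each pair of genes over livers after subtracting group means, for 22 knock-in and 24 knockout livers, on a colour scale from -1 to 1. Pparg, Cidea, Cidec and Mogat1 form a block in knockout livers (0.65 to 0.85), and the Cfd row is the palest in knock-in livers.

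The genes whose level followed each of the 7 most closely over the 46 livers, group differences included, were found among the tested genes by Pearson's r of log2 CPM. For Mogat1 they were Agpat2 (0.90), Hsd17b12 (0.89) and Cd36 (0.88), and for Cidea they were B430212C06Rik (0.90), which lies antisense to it, Plin2 (0.89) and Cs (0.88). B430212C06Rik had 9.65 reads per liver on average and Cidea 105.6, and their exons overlap. Whether some of those reads came from Cidea on the wrong strand was not tested. For Cfd they were Tlcd2 (0.92), Tpm2 (0.91) and A630031M04Rik (0.91), and for Cidec they were 2010003K11Rik (0.90), Cntnap1 (0.87) and Aldh1a7 (0.85). Likeness was lower for Pparg (Ermp1 0.74, Lgals1 0.72, Limk1 0.72), Fabp4 (Gramd1b 0.74, Gm30692 0.72, Serpina7 0.70) and Plin4 (Zfp689 0.63, Megf9 0.62, Ppp2r2d 0.62).

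The other genes of the pathway were taken from 6 lists and tested with edgeR, with p-values adjusted over all genes. Their counts stand beside 29.1% of all genes called higher and 30% lower in DN:HOM, and 11.5% and 7.87% in KO:HOM. The first list holds the partners of PPARγ and other adipogenic regulators. Of 19 tested, 3 rose and 11 fell in DN:HOM livers (3 and 10 with all 48 livers), and the median of the list was -0.28 beside -0.01 over all genes. Under library size alone, where 59% of all genes were called higher and 11.1% lower, 9 were called higher and 3 lower, Rxrb, Ncoa2 and Med1 turned from lower to higher, and the median of the list was 0.14 beside 0.42 over all genes. Klf5, a transcription factor of early adipogenesis, was at 1.88 ± 0.546 CPM (SD, n = 7) in DN:HOM, against 0.130 ± 0.0755 CPM (SD, n = 7) in the wild type, where every liver was near the floor. Its log2 fold change was 3.79 (SE 0.46, adjusted p = 2.45e-09) without the 2 livers and 2.03 (SE 0.52, adjusted p = 0.00166) with them. Cebpd, an early adipogenic factor, rose by 1.13 (SE 0.24, adjusted p = 0.000104), and Prdm16, a regulator of brown and beige fat, by 1.98 (SE 0.43, adjusted p = 0.000125). Ppara, the fat-burning relative of Pparg, fell by 1.47 (SE 0.17, adjusted p = 5.65e-10), from 117 ± 28.8 CPM (SD, n = 7) to 42.1 ± 8.21 CPM (SD, n = 7), and by 1.07 (SE 0.22, adjusted p = 0.000172) with all 48. Cebpa, which sustains Pparg in fat cells, fell by 0.73 (SE 0.11, adjusted p = 2.67e-07), and Rxra, the partner receptor, by 0.59 (SE 0.10, adjusted p = 3.30e-06), but the fall of Rxra by 0.16 under library size was not called. In KO:HOM 0 rose and 4 fell (Rxrb, Cebpa, Ppargc1b and Klf15), and 1 fell with all 48. Library size alone gave 1 higher and 1 lower in KO:HOM, beside 16.7% and 2.79% of all genes.

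Among 15 tested droplet coats and lipases, 2 rose and 11 fell in DN:HOM (2 and 10 with all 48 livers), with a median of -0.76. Plin2, the main droplet coat of hepatocytes, fell by 0.88 (SE 0.18, adjusted p = 4.30e-05), from 868 ± 131 CPM (SD, n = 7) to 467 ± 62.5 CPM (SD, n = 7). Pnpla3, a droplet hydrolase, fell by 4.67 (SE 0.66, adjusted p = 6.44e-08), and by 3.01 (SE 0.71, adjusted p = 0.000728) with all 48. Fitm1, which helps droplets form, fell by 2.39 (SE 0.17), G0s2, the inhibitor of the lipase ATGL, by 2.54 (SE 0.34), and Mgll, the monoacylglycerol lipase, by 2.54 (SE 0.17). Plin3 rose by 0.57 (SE 0.12, adjusted p = 4.91e-05) and Hsd17b13 by 0.51 (SE 0.14, adjusted p = 0.00174). In KO:HOM 4 fell and 0 rose, Pnpla3 by 2.97 (SE 0.64, adjusted p = 0.000674), Plin5 by 0.78 (SE 0.20, adjusted p = 0.00488), Mgll by 0.54 (SE 0.15) and Abhd5 by 0.25 (SE 0.07), and 3 fell with all 48, where Mgll was not called (adjusted p = 0.258). The effect on Fitm1 differed between the studies by -2.51 (SE 0.23, adjusted p = 2.26e-11), and by -1.85 (SE 0.40, adjusted p = 0.00421) with all 48, while the difference for Pnpla3 of -1.70 (SE 0.92, adjusted p = 0.152) did not pass.

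Of 12 genes of triacylglycerol synthesis, 1 rose and 6 fell in DN:HOM, with a median of -0.70 (0 and 6 of 11 with all 48 livers). Library size alone gave 5 and 5, beside 59% and 11.1% of all genes. Gpam, which makes the first step in glycerolipid synthesis, fell by 2.30 (SE 0.24, adjusted p = 4.11e-11), Agpat2 by 1.32 (SE 0.12, adjusted p = 9.998e-13) and Dgat2, the last step, by 1.18 (SE 0.11, adjusted p = 7.39e-13). Agpat1 rose by 0.33 (SE 0.12, adjusted p = 0.0166), a call lost with all 48 livers (adjusted p = 0.0725). In KO:HOM 1 rose and 3 fell (0 and 2 of 11 with all 48). Mogat2, the intestinal relative of Mogat1, rose there by 2.35 (SE 0.49, adjusted p = 0.000409), from 0.229 ± 0.202 to 1.19 ± 1.10 CPM (SD, n = 8 each), levels that begin at the floor, and it was not tested with all 48 livers. Gpat4 fell by 0.86 (SE 0.12) and Lpin1 by 1.85 (SE 0.47, adjusted p = 0.00385).

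Uptake and binding of fatty acids and glycerol divided by gene. Of 18 tested, 4 rose and 10 fell in DN:HOM, also with all 48 livers, with a median of -0.72. The risers were Aqp7, the glycerol channel of adipocytes, by 3.77 (SE 0.60, adjusted p = 6.81e-07) from 0.246 ± 0.175 to 3.45 ± 1.01 CPM (SD, n = 7 each), Lpl, which frees fatty acids from lipoproteins, by 1.87 (SE 0.38, adjusted p = 5.25e-05), Fabp5 by 1.67 (SE 0.37, adjusted p = 0.000131) and Slc27a1 by 1.44 (SE 0.19, adjusted p = 9.13e-09). The fatty acid carriers of liver and gut, Fabp1 and Fabp2, fell by 1.93 (SE 0.17) and 2.53 (SE 0.14, adjusted p = 1.91e-18), and Cd36, a fatty acid receptor, by 1.55 (SE 0.31, adjusted p = 2.81e-05). In KO:HOM 1 rose and 6 fell (0 and 3 with all 48), Fabp1 by 1.05 (SE 0.15) and Fabp2 by 0.80 (SE 0.13) among the falls, the latter not called with all 48 (adjusted p = 0.0809). The effects on Aqp7 differed between the studies by 4.77 (SE 0.93, adjusted p = 7.24e-05) and by 3.38 (SE 1.03, adjusted p = 0.0302) with all 48.

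Of 14 PPARα targets tested, 1 rose and 9 fell in DN:HOM (1 and 8 with all 48 livers), with a median of -0.75. Cyp4a14 and Cyp4a10, fatty acid hydroxylases, fell by 3.95 (SE 0.80, adjusted p = 4.33e-05) and 3.49 (SE 0.52, adjusted p = 2.34e-07). The call of Cyp4a14 was lost with all 48 livers (log2 fold change -1.79, adjusted p = 0.0708). The fall of Cyp4a10 in DN:HOM was also smaller with all 48 livers. Its difference of homozygous effects went from -3.25 (SE 0.67, adjusted p = 0.000151) to -1.44 (SE 0.87, adjusted p = 0.28), which was not called. Its KO:HOM log2 fold change hardly moved (-0.23 and -0.22). Ucp2 rose by 1.91 (SE 0.31, adjusted p = 7.93e-07) in DN:HOM and by 1.46 (SE 0.29, adjusted p = 0.000214) in KO:HOM, where Acot1 fell by 1.002 (SE 0.30, adjusted p = 0.0147). These were the 1 rise and 1 fall of the list in KO:HOM, and with all 48 livers the call of Acot1 was lost (adjusted p = 0.0955) and 1 and 0 remained.

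In the alternative complement pathway, to which adipsin belongs, 3 of 10 rose and 3 fell in DN:HOM (2 and 3 with all 48 livers), with a median of 0.13. Library size alone gave 7 and 0, beside 59% and 11.1% of all genes, and a median of 0.56 beside 0.42. C3, the central component, rose by 0.96 (SE 0.15, adjusted p = 5.14e-07) and the receptor gene C3ar1, which macrophages express, by 2.79 (SE 0.33, adjusted p = 8.21e-10). For C3ar1 the difference of homozygous effects was 1.65 (SE 0.44) over the 46 livers. With all 48 it was 0.44 (SE 0.62, adjusted p = 0.685). Cfp, which encodes properdin, fell by 0.98 (SE 0.29, adjusted p = 0.00398), and by 0.55 with library size alone, which was not called. Cfb, the substrate of adipsin, was at 2.80 ± 0.729 CPM (SD, n = 7) in DN:HOM, against 2.24 ± 0.431 CPM (SD, n = 7) in the wild type (adjusted p = 0.2198), and was called higher under library size alone (0.77, adjusted p = 0.00491). In KO:HOM only C3ar1 of the list was called, with a rise of 1.14 (SE 0.31, adjusted p = 0.00634), and 0 of 10 with all 48. Library size alone called 3 higher and 0 lower in KO:HOM, beside 16.7% and 2.79% of all genes. In DN:HET and KO:HET 0 genes of the 6 lists were called in the fits of 46 and of 48 livers with TMM, while library size alone and the fit within the study each called 1 PPARα target in DN:HET.

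**Figure D4:**
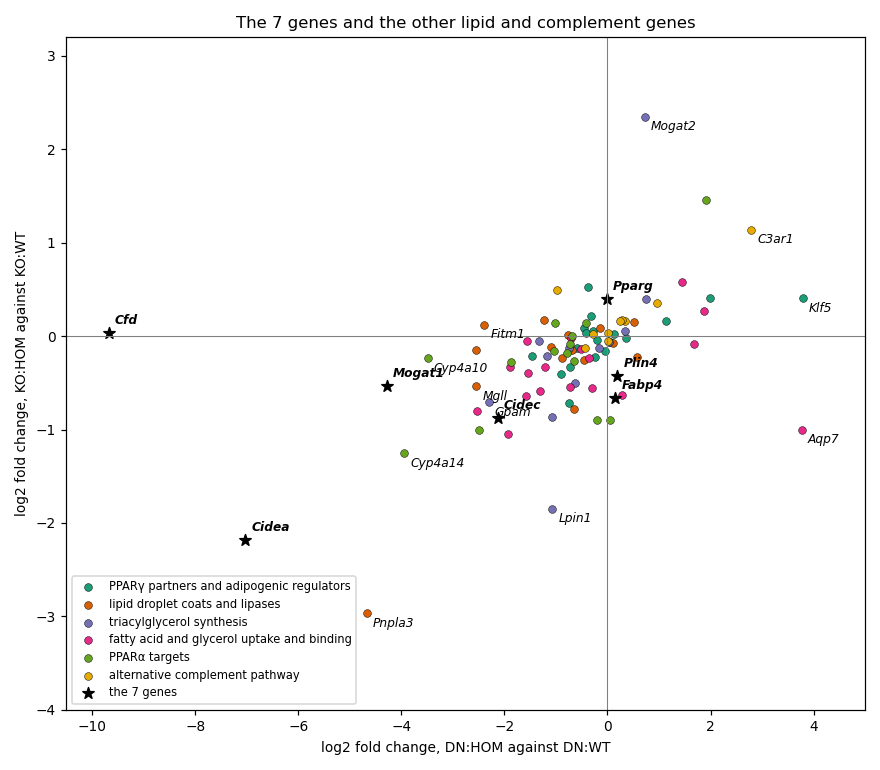
Log2 fold change in DN:HOM against DN:WT (x axis) and in KO:HOM against KO:WT (y axis) for the 7 genes (stars) and the tested genes of the 6 lists (circles, by list), over the 46 livers. Cfd lies at -9.68 and 0.03, Cidea at -7.03 and -2.19, and Pnpla3 at -4.67 and -2.97.

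Against the wild-type knock-in livers, KO:WT livers had 8 of 19 PPARγ partners higher and 0 lower, and 1 droplet gene higher and 5 lower, Plin2 by 0.56 (SE 0.17, adjusted p = 0.0256) and Pnpla3 by 1.72 (SE 0.53, adjusted p = 0.0258) among the falls. With all 48 livers these counts were 8 and 0, and 1 and 1, so Plin2 and Pnpla3 were not both called lower. Of the other lists, 5 genes of triacylglycerol synthesis were higher and 2 lower, 1 and 0 of uptake and binding, 2 and 1 PPARα targets, and 2 and 0 of the complement pathway, where 12% of all genes were called in either direction.

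Transcripts that mark cell types moved with genotype. The summed level of 6 hepatocyte markers was 31930 to 41150 CPM in DN:HOM and 60390 to 76570 CPM in DN:WT livers, and 49140 to 72640 CPM in KO:HOM and 68770 to 94640 CPM in KO:WT livers. The 6 macrophage markers summed to 747 to 1230 CPM in DN:HOM against 72.2 to 140.5 CPM in DN:WT, and to 199 to 921 CPM in KO:HOM against 48.6 to 150.2 CPM in KO:WT. Markers of resident Kupffer cells, 6 of them, summed to 1.70 to 3.50 CPM in DN:HOM and 139.6 to 268 CPM in DN:WT, so all 7 DN:HOM livers were low for Kupffer genes as for Cfd, Cidea and Mogat1. In the knockout study they summed to 22.7 to 69.1 CPM in KO:HOM and 82.6 to 304 CPM in KO:WT, with no overlap, while the Cfd ranges of these groups overlapped. Other sums were higher in every DN:HOM than in every DN:WT liver. They were 926 to 1410 against 35.5 to 87.2 CPM for 5 markers of lipid-associated macrophages, 423 to 607 against 184 to 225 CPM for 7 of stellate cells, 46.95 to 62.6 against 6.53 to 10.15 CPM for 4 of cholangiocytes and 18.7 to 61.2 against 0.856 to 2.87 CPM for 3 of neutrophils. For 3 of T cells they were 1.55 to 3.12 against 0.667 to 1.26 CPM. The part of these cell types in the values of the 7 genes and of the list genes named here, Klf5, Lpl, Fabp5, Aqp7 and C3ar1 among them, was not tested.

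The defining genes of adipocytes were near 0 in these livers. The 10 white adipocyte markers summed to 7.23 to 18.4 CPM in DN:WT, 4.74 to 11.7 CPM in DN:HOM, 4.95 to 26.9 CPM in KO:WT and 5.65 to 13.4 CPM in KO:HOM livers, and Adrb3 held most of the mean sum in each group. Of the 10, 9 had a mean under 1 CPM in each group, Adipoq, Lep (leptin) and Plin1 among them, and 0 to 2 of the 10 had no read in a group. Adrb3 is overlapped in the later annotation by Gm63998 on the same strand, whose reads cannot be told apart from its own, and by Gm45470 on the other. It was found in all 48 livers with a mean of 11.3 CPM. In DN:WT livers, where Cfd was at 135 ± 51.4 CPM (SD, n = 7), 1 read of Adipoq and 2 of Plin1 were counted in 7 livers. The 6 brown adipocyte markers summed to 0.389 to 2.56 CPM in every liver of the 46.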

How the data were processed

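Liver RNA (polyA, stranded libraries) of 48 mice was sequenced. The authors aligned reads with STAR 2.5.0a to GRCm39 (Ensembl release 104 per the methods) and deposited, per liver, a table of raw counts per gene (unstranded, and by strand), not normalized. The strand column with the larger total was used here (6.97 to 8.62 times the other). Reads that named no gene, 24.0% to 35.0% of a library, were left out. Symbols came from GENCODE vM39, a later release, which matched 54749 of 55416 identifiers (98.8%).

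The test was that of edgeR 4.0.16 under R 4.3.3 (filterByExpr, TMM, quasi-likelihood F test on 6 group means, Benjamini-Hochberg adjustment over all genes, threshold 0.05). A standard error is the log2 fold change divided by the square root of F. Log2 CPM used a prior count of 2. The main fit held 46 livers: all 24 knockout livers, and the 22 knock-in livers that matched the study's source values for 5 genes. Nothing in the labels says how livers were batched, and p-values measure the spread between mice. In data simulated for DN:HOM against DN:WT over 15711 genes, 200 genes were changed, as many up as down. Log2 changes of 1 were called in 72% and of 2 in 96% of the genes given them, with 5 false calls of 15231. The real comparison called 9292 of 15711 genes, so the simulation cannot show how scaling affects its calls. Alternatives were all 48 livers, library size alone, DESeq2 1.42.0, counts without the low-count filter or with a filter at 1 CPM on average, unstranded counts, fits within each study, leaving out livers under 10000000 reads, and a prior count of 0.5. A fit of all 48 livers by library size and a fit without the 3 livers with most Adipoq reads were chosen after seeing the data. Tables and figures used Python 3.11.15 with pandas 2.3.3, numpy 2.4.6, scipy 1.17.1 and matplotlib 3.10.9.

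The 7 genes, the lists and the markers were chosen with earlier results of these data known. Genes named beside the 7 are the largest called rise and fall of each list in DN:HOM, further list genes taken by role, markers, Nr1h3, and the 3 genes most like each of the 7. Protein sequences were not used here.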

Additional observations from a re-analysis of the deposited data

Results flagged for a closer look

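By Dixon's test on CPM, not log2 CPM, the highest or lowest liver stood apart in 7 of 42 tests of a gene in a group over the 46 livers. Chance gives about 1 in 20 for normally distributed values, a rate that does not hold for skewed levels. In all 7 it was the highest liver. Tests of genes in the same livers are not independent. The library labelled DN:HOM animal 12, already left out of the 46, stood apart from the other 7 DN:HOM livers as the highest for Pparg (38.8 CPM), Cfd (110.1 CPM), Cidea (18.8 CPM), Cidec (82.9 CPM) and Mogat1 (11.3 CPM).

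Over the 46 livers the highest liver stood apart for Pparg in DN:HET animal 1 (40.6 CPM), Cfd in DN:WT animal 5 (240.2 CPM), Cidea in KO:HET animal 7 (10.7 CPM) and KO:HOM animal 22 (3.90 CPM), Plin4 in KO:WT animal 33 (166 CPM), Fabp4 in KO:HOM animal 11 (14.7 CPM) and Mogat1 in KO:WT animal 23 (13.2 CPM).

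Among the 12 genes with the largest rise and fall of each list in DN:HOM, the homozygous effects, knock-in minus knockout, differed for 9 by edgeR's test of the difference over the 46 livers, where 16.5% of all genes were called higher and 18.3% lower. The 12 were chosen for their DN:HOM change, which is part of this difference, so the 9 cannot be set against those shares. Over the whole lists 2 were called higher and 8 lower among PPARγ partners, 1 and 8 among droplet genes, 0 and 4 of triacylglycerol synthesis, 5 and 9 of uptake, 0 and 9 PPARα targets and 2 and 2 of complement. With all 48 livers these counts were, in the same order, 0 and 1, 1 and 3, 0 and 2, 2 and 1, 0 and 2, and 0 and 1. Library size alone gave 6 and 1, 3 and 7, 2 and 4, 5 and 7, 1 and 6, and 5 and 1. All genes called were 1636 of 15621 with all 48 livers and 7262 of 15711 under library size alone. The difference in log2 fold change was 3.38 for Klf5, 4.77 for Aqp7, 1.65 for C3ar1 and 0.80 for Plin3. It was -1.25 for Ppara, -1.60 for Gpam, -1.73 for Fabp2, -2.69 for Cyp4a14 and -1.47 for Cfp. With all 48 livers, Plin3 (0.66), Aqp7 (3.38) and Cfp (-1.27) remained called among these 9.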

How the results depend on the processing

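Of the settings changed singly, leaving in the libraries labelled DN:WT animal 10 and DN:HOM animal 12 moved the most values. It moved 8 of 42 fold changes of the 7 genes and 14 of 36 list counts, against 2 and 4 for library size alone. Library size alone moved the DN:HOM counts of PPARγ partners, triacylglycerol synthesis and complement further than those libraries did. It also moved those of droplet genes, to 3 higher and 9 lower, and of uptake, to 5 and 9, by somewhat more. Of all genes 59% were then called higher and 11.1% lower. With all 48 livers the median log2 fold change of the 7 genes was -1.47 in DN:HOM (against -2.13) and -0.61 for the difference of homozygous effects (against -1.26). With all 48 livers scaled by library size alone, an alternative chosen after seeing the data, these were -1.20 and -0.46. Members called went with all 48 livers from 2 to 1 in KO:HOM (0 by library size), from 4 to 0 for the difference (1 by library size), and from 2 to 0 between the wild-type groups (0 by library size). All genes called went from 3048 to 2016 in KO:HOM (1946 by library size), from 361 to 39 in DN:HET (24) and from 5455 to 1636 for the difference (2519). Between the wild-type groups, all genes called rose from 1887 to 1986 (2527).

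Among other settings, each study alone gave 0 members in KO:HOM (2411 of 14296 genes), 1 in DN:HET and 239 genes in DN:HET. DESeq2 gave 617 genes in DN:HET against 361 and 10 in KO:HET against 3, where no filter gave 8. With no filter 1 member was called between the wild-type groups, beside 1407 of 32766 genes. Without the 3 livers with most adipocyte reads, 1 was called in KO:HOM, 1 between the wild-type groups and 3 for the difference, beside 2708, 1387 and 5062 of 15869 genes. The cause of these shifts was not tested.

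No value of a called member changed direction under any of these settings. Of 406 fold changes of the 7 genes under an alternative, 19 moved by more than the spread between livers, all of them with the 48 livers or library size alone. Of 84 correlations within groups under an alternative, 9 moved by over 0.2, each of them among knock-in livers with the 2 livers kept in. No paired analysis was possible because animal numbers are identifiers within a study and pair no livers. Depth limits Cfd, Cidea, Klf5 and Aqp7 where they lie near the 3-read floor.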
